A study of Mus musculus with 6 samples.

Results

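The Clcn5 intronic miRNA cluster is a row of microRNA (miRNA) hairpins inside the gene Clcn5 on the mouse X chromosome, and its members here were mmu-miR-532, mmu-miR-188, mmu-miR-362, mmu-miR-500 and mmu-miR-501. A row of the count table belonged to the cluster when its miRNA name was one of these stems or began with a stem followed by a hyphen, and the highest count over the rows of a mature name was kept in each library. This gave 8 mature strands of 535 mature miRNAs in the table, from 5 of 436 hairpins. Small RNA had been sequenced from mouse nephron progenitors (MNP, 3 libraries) and mouse whole kidney (MWK, 3 libraries) to measure small RNA expression in both. All samples came from wild-type CD1 embryos at embryonic day 15.5, and both groups were taken from 3 litters. The MNP cells were loosened by limited digestion and then enriched by removing CD140a, CD105, Epcam and Ter119 positive cells with magnetic beads, a procedure that can leave renal stroma behind. The paper reports that minor stromal contamination of the isolate was detected by quantitative PCR of Pdgfrβ. The MWK samples were what was left of the kidneys once this digestion had been done, and so were not untouched organs. RNA was purified with the miRNeasy Micro Kit for MNP and the Mini Kit for MWK, so effects of the kit or the isolation and effects of the group cannot be told apart. Columns MNP6 and MWK6 match the title of no single sample, and they entered as members of their groups without a replicate number.

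A miRNA is cut from a hairpin in a longer primary transcript by Drosha and then Dicer. Either arm of the hairpin (5p or 3p) can be loaded into an Argonaute protein, where bases 2 to 8 of the mature strand, the seed, pair with target mRNAs. Hairpins inside an intron can be made from the transcript of the host gene. Clcn5 encodes ClC-5, an endosomal chloride and proton exchanger that serves protein uptake in the proximal tubule, and it is mutated in Dent disease. Clcn5 mRNA is not measured by small RNA sequencing and was not analysed here.

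All hairpins of the cluster lie in the same long intron and none overlaps a Clcn5 exon (mm10, GENCODE annotation). Clcn5 spans chrX:7153810-7319358 on the minus strand, and the 5 hairpins lie on the same strand within 10815 bases, chrX:7237683-7248497. In the direction of transcription mir-532 comes first (chrX:7248402-7248497), followed after 345 bases by mir-188 (chrX:7247989-7248056). After a gap of 5942 bases come mir-362 (chrX:7241982-7242046) and, 630 bases further on, mir-501 (chrX:7241243-7241351). The last hairpin, mir-500 (chrX:7237683-7237774), follows 3468 bases later. The intron is 103648 bases long (chrX:7213011-7316658), and the exon upstream of it ends 68161 bases before mir-532. Of 5 annotated Clcn5 transcripts, 3 span the hairpins and 2 start downstream of them. No other hairpin of the count table fell inside Clcn5.

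**Figure D1:**
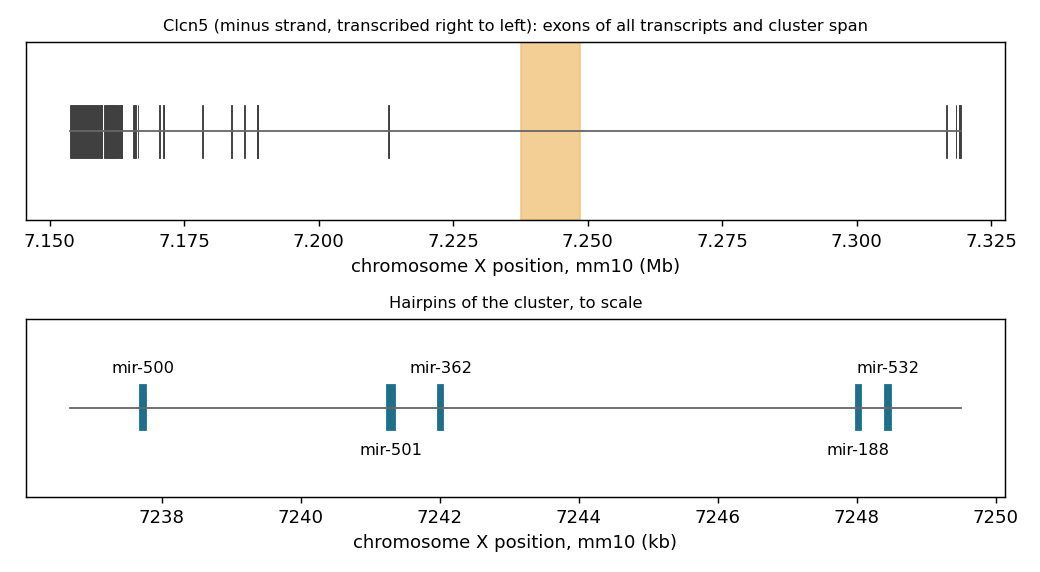
The upper map shows Clcn5 on chromosome X (mm10, position in Mb) with the exons of all its transcripts as dark boxes and the span of the 5 hairpins shaded. The lower map shows the hairpins to scale (position in kb): mir-532 and mir-188 lie 345 bases apart, and mir-362 and mir-501 lie 630 bases apart.

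The mature sequences show how closely the strands of the cluster resemble each other, which bears on how their reads can be assigned. Sequences matched by name in RefSeq (GRCm38.p6) for 7 of the 8 strands, all on the minus strand, and the capitals mark the seed. The first pair below shares a seed, and the next pair differs in the seed by 1 base.
miR-501-3p: aAUGCACCcgggcaaggauuug
miR-500-3p: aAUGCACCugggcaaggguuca
miR-362-5p: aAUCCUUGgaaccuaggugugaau
miR-501-5p: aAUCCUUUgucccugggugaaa
miR-188-5p: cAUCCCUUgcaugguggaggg
miR-362-3p: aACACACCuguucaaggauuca
miR-532-3p: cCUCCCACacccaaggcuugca
miR-501-3p lies at chrX:7241270-7241291 and miR-500-3p at chrX:7237695-7237716. With positions counted from 1 at the 5′ end and without gaps, these strands had the same base at 18 of 22 positions. From miR-500-3p to miR-501-3p the substitutions were U9C, G18A, C21U and A22G, all outside the seed. miR-362-3p (chrX:7241984-7242005) matched miR-500-3p at 17 of 22 positions, with substitutions C3U, A4G, U11G, U12G and A18G from the first to the second, of which 2 lie in the seed. miR-362-5p (chrX:7242019-7242042) and miR-501-5p (chrX:7241307-7241328) matched at 16 of 22 positions. miR-188-5p (chrX:7248031-7248051) differed from miR-501-5p at 1 seed base but matched it at only 10 of 21 positions. miR-532-3p lies at chrX:7248419-7248440. miR-532-5p is named without its sequence.

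The strands differed widely in the number of counts behind them. The libraries held 393951, 436112 and 333850 counts on known miRNAs in MNP1, MNP2 and MNP6, compared with 349241, 360221 and 355848 in MWK1, MWK2 and MWK6. Levels are given as CPM, each library's counts scaled by its size after correction by TMM, a trimmed mean method. The CPM of all miRNAs therefore do not sum to the same value in each library. A floor of 3 counts corresponded to 6.54 CPM in the deepest library and up to 9.45 CPM in the others. Reads carried no molecular identifiers, so such floors and the intervals on shares cover counting error only. All 8 strands passed the filter of more than 10 counts summed over the 6 libraries, as did 525 of the 535 miRNAs. Over all libraries miR-532-5p had 8809 counts, miR-501-3p 835 and miR-362-5p 366. The remaining strands had 41 (miR-532-3p), 33 (miR-188-5p), 18 (miR-362-3p), 17 (miR-501-5p) and 16 (miR-500-3p).

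None of the cluster's strands passed the threshold between MNP and MWK, although many other miRNAs did. The quasi-likelihood test of edgeR, with Benjamini-Hochberg adjustment and a threshold of 0.05 on the adjusted p, called 0 of the 8 strands, against 192 of 525 miRNAs (36.6%) over the whole table. Of the 8, 5 strands had 41 counts or fewer, where only large differences could pass. With more than 10 counts required in each library, the test called 0 of 3 strands and 120 of 260 miRNAs. At an unadjusted p under 0.05 the main test gave 0 strands, and DESeq2 and limma-voom each called 0. Some alternatives of the edgeR test gave 1 strand at an unadjusted p under 0.05. These were library totals, more than 10 counts in each library, and the 4 numbered libraries with or without a replicate block. Of the 525 miRNAs, 102 (19.4%) were higher and 90 (17.1%) lower in MNP. The median log2 fold change (MNP over MWK) was -0.28 over the 8 strands and -0.01 over all 525. The strands went both ways, and the 4 negative values all belong to strands of 41 counts or fewer. With library totals in place of TMM, a scaling described below, the median of the 8 was -0.085. It was -0.15 without MNP6 and -0.16 without MWK2. Without MWK1 it was 0.06, but miR-500-3p could not be tested there, so this value rests on 7 strands. With more than 10 counts required in each library it was 0.16 over 3 strands. In every alternative that tested all 8 strands the median was negative, though its size moved. These fits reuse the same few counts of the strands with negative values and are not independent of each other. These tests do not show that the strands were equal between the groups, and the intervals below give the differences the data allow. In bulk RNA, a difference in the number of cells of a type and a difference in the RNA made per cell cannot be told apart.

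miR-532-5p carried most of the cluster's reads, and its level was slightly higher in each MNP library than in any MWK library. It was at 4247, 4204 and 4118 CPM in MNP1, MNP2 and MNP6 and at 3575, 3464 and 3789 CPM in MWK1, MWK2 and MWK6. The lowest MNP library stood above the highest MWK library, and replicates lay close together, with a coefficient of variation of 1.57% in MNP and 4.58% in MWK. Over the table, 123 of 525 miRNAs (23.4%) had all 3 MNP libraries above all 3 MWK libraries, and miR-532-5p was the 1 strand of the cluster among them. Its mean was 4190 ± 65.8 CPM in MNP and 3609 ± 165 CPM in MWK (SD, n = 3 libraries each). The log2 fold change was 0.22 ± 0.14 (SE, adjusted p = 0.299 by the quasi-likelihood test of edgeR after Benjamini-Hochberg adjustment). The 95% interval ran from -0.10 to 0.53, which allows MNP levels between 0.935 and 1.44 times those of whole kidney. By mean CPM it ranked 43 of 525.

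The call for miR-532-5p depended on how libraries were scaled. With library totals in place of TMM the log2 fold change was 0.42 ± 0.14 (SE, adjusted p = 0.0362 by the quasi-likelihood test of edgeR), and it was the only strand of the cluster past the threshold. Under that scaling 121 of 525 miRNAs (23.0%) were higher in MNP, and the median log2 fold change of all miRNAs moved up by 0.20. Relative to the median of all miRNAs, miR-532-5p stood at 0.23 under either scaling. Over the 15 alternatives its adjusted p ranged from 0.0362 to 0.535 and its log2 fold change from 0.18 to 0.42.

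miR-501-3p, the main strand of the mir-501 hairpin, came second in abundance, with overlapping groups. It was at 389, 370 and 397 CPM in MNP1, MNP2 and MNP6 and at 412, 299 and 362 CPM in MWK1, MWK2 and MWK6. MWK1 had the highest value of the 6 libraries and MWK2 the lowest. The means were 385 ± 13.6 CPM in MNP and 358 ± 56.5 CPM in MWK (SD, n = 3 each). The log2 fold change was 0.11 (95% interval -0.34 to 0.55, adjusted p = 0.746 by the quasi-likelihood test of edgeR). Without MWK2 the log2 fold change was -0.015, so its sign rested on that library. The counts of miR-501-3p and miR-500-3p are uncertain to the extent that reads of these strands, which share a seed and 18 of 22 bases, could be assigned to the other, and the reads themselves were not analysed here. Summed over the libraries, miR-501-3p had 52.2 counts for each count of miR-500-3p.

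miR-362-5p, the main strand of mir-362, followed at a lower level, and its groups overlapped as well. Its level was 182, 159 and 160 CPM in MNP1, MNP2 and MNP6 and 156, 142 and 178 CPM in MWK1, MWK2 and MWK6. The highest MWK library lay above both lower MNP libraries. The means were 167 ± 13.0 and 159 ± 18.3 CPM (SD, n = 3 each), and the log2 fold change was 0.07 (95% interval -0.41 to 0.56, adjusted p = 0.846 by the quasi-likelihood test of edgeR). Without MWK2 it was -0.0087.

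The order of levels was the same in both groups for these strands, with miR-532-5p above miR-501-3p and miR-501-3p above miR-362-5p in each of the 6 libraries. No library of a lower strand reached the level of the strand above it. Together they held between 98.1% and 99.1% of the cluster's CPM, and miR-532-5p alone held 87.3%, 88.0% and 87.2% in MNP1, MNP2 and MNP6, compared with 84.7%, 87.1% and 86.4% in MWK1, MWK2 and MWK6. The other 5 strands were all under 50 CPM, and neighbours in their order by mean level overlapped in each group, except that miR-188-5p stood above miR-362-3p in all MWK libraries.

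**Figure D2:**
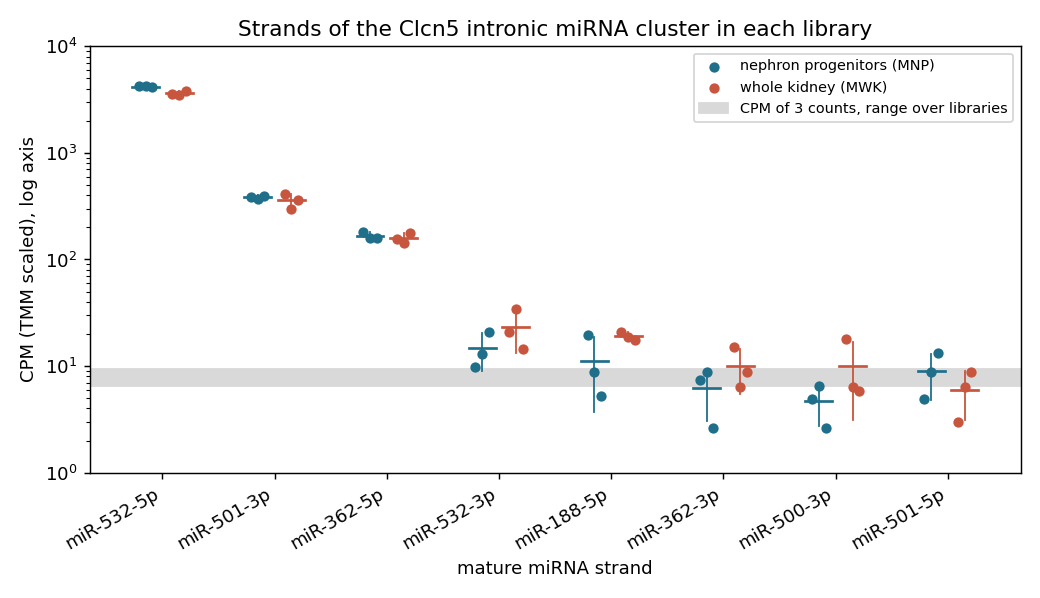
Level of each strand of the cluster in CPM on a log axis, with 1 point per library, horizontal lines at the group means and vertical lines of 1 SD (n = 3 libraries a group). miR-532-5p lay between 3464 and 4247 CPM, while the 3 strands at the right stayed near the grey band of 6.54 to 9.45 CPM that 3 counts correspond to.

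Among the 5 weak strands, miR-532-3p and miR-188-5p were the better measured. miR-532-3p, the passenger arm of mir-532 by abundance, had 4, 6 and 8 counts in MNP1, MNP2 and MNP6, compared with 7, 11 and 5 in MWK1, MWK2 and MWK6. The counts overlapped between groups, and the log2 fold change was -0.67 with a 95% interval from -1.74 to 0.40 (adjusted p = 0.349 by the quasi-likelihood test of edgeR). It was -0.30 without MWK2 and -1.02 without MNP6. miR-188-5p had 8, 4 and 2 counts in the MNP libraries and 7, 6 and 6 in the MWK libraries. Its MNP values varied more than its MWK values, at 11.2 ± 7.54 against 19.2 ± 1.78 CPM (SD, n = 3 each). The log2 fold change was -0.75 with an interval from -1.94 to 0.44 (adjusted p = 0.342 from the same edgeR test), and it was -1.38 without MNP1 and -0.48 without MNP6.

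The other 3 strands were close to the floor in most libraries. miR-362-3p had 3, 4 and 1 counts in MNP1, MNP2 and MNP6, compared with 5, 2 and 3 in MWK1, MWK2 and MWK6, with more than 3 counts in 2 libraries. miR-500-3p had 2, 3 and 1 counts in MNP and 6, 2 and 2 in MWK, and MWK1 was the only library with more than 3. miR-501-5p had 2, 4 and 5 counts in MNP and 1, 2 and 3 in MWK. Their adjusted p values were 0.569, 0.366 and 0.646 by the same edgeR test. The interval for miR-500-3p ran from -2.71 to 0.67 on the log2 scale.

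Summed over the 5 weak strands, the level was 46.8, 45.7 and 44.7 CPM in MNP1, MNP2 and MNP6 and 78.2, 72.4 and 55.5 CPM in MWK1, MWK2 and MWK6. These sums rest on 17 to 26 counts a library. In CPM the MNP sums lay below the MWK sums, the opposite order to miR-532-5p. Before scaling the summed counts overlapped, since MNP2 held 21 and MWK6 only 19. Among the 525 single miRNAs tested, 122 had every MNP library below every MWK library in CPM. Of the 5 strands, miR-501-5p went the other way, with a log2 fold change of 0.53. The grouping of these 5 strands was made after the values were seen and was given no test.

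Summed over all 8 strands, the cluster was at 4865, 4780 and 4720 CPM in MNP1, MNP2 and MNP6 and at 4222, 3977 and 4384 CPM in MWK1, MWK2 and MWK6. The groups did not overlap, and the means were 4788 ± 73.0 and 4194 ± 205 CPM (SD, n = 3 each), 1.14-fold higher in MNP. On the log2 scale this difference was 0.19, and it was 0.40 with library totals in place of TMM, where the median of all miRNAs also moved up by 0.20. Most of this sum was miR-532-5p. As a share of the counts tested, before TMM scaling, the cluster took 0.502%, 0.503% and 0.538% in MNP and 0.402%, 0.351% and 0.422% in MWK.

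The hairpins with both arms counted differed in the arm that accumulated, and each kept the same dominant arm in both groups. mir-532 and mir-362 were read mainly from the 5p arm, and mir-501 mainly from the 3p arm. The 5p arm of mir-532 held 99.8%, 99.7% and 99.5% of its counts in MNP1, MNP2 and MNP6, compared with 99.4%, 99.0% and 99.6% in MWK1, MWK2 and MWK6. In MWK2, the lowest, the 95% Wilson interval ran from 98.2% to 99.4%, and the MWK6 share fell within the MNP range. For mir-362 the 5p share was 96.1%, 94.8% and 98.4% in MNP and 91.2%, 95.7% and 95.3% in MWK, from 47 to 77 counts a library. The Wilson interval of the lowest of these, MWK1, was 81.1% to 96.2%. For mir-501 the 5p share was 1.25%, 2.30% and 3.21% in MNP and 0.725%, 2.06% and 2.36% in MWK. Its highest value, in MNP6, had an interval from 1.38% to 7.28%. Only the 5p strand of mir-188 and only the 3p strand of mir-500 were in the count table. Arm use of these hairpins could therefore not be assessed.

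Differences in arm use between the groups stayed within the overlap of their libraries. The 5p share was higher in MNP by 0.303 percentage points for mir-532, 2.34 for mir-362 and 0.535 for mir-501. The sizes of these differences rested on single libraries. For mir-532 it was 0.135 points without MWK2, and for mir-362 it was 0.903 points without MWK1 and 1.36 points without MNP6. For mir-501 it was 0.0393 points without MWK1, 0.0582 without MNP6, 0.858 without MWK6 and 1.04 without MNP1. Two-sided exact permutation tests gave p = 0.2, 0.4 and 0.5 for these, and each was 0.5 after Benjamini-Hochberg adjustment over the 3 hairpins. With 3 libraries against 3 the smallest p this test can reach is 0.1, so it could not pass 0.05.

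The shares of the hairpins in the cluster's counts overlapped between the groups. mir-532 supplied 87.5%, 88.2% and 87.7% in MNP1, MNP2 and MNP6, compared with 85.2%, 88.0% and 86.8% in MWK1, MWK2 and MWK6. mir-501 supplied 8.10%, 7.93% and 8.69% in MNP and 9.83%, 7.68% and 8.46% in MWK. The share of mir-362 was 3.90%, 3.51% and 3.45% in MNP and 4.06%, 3.72% and 4.26% in MWK. The groups overlapped for all 5 hairpins, and the largest difference was 1.18 percentage points, for mir-532, which was 0.454 points without MWK1 and 1.84 points without MWK2. Two-sided exact permutation p values ranged from 0.2 to 0.7 over the 5 hairpins, and from 0.333 to 0.7 after Benjamini-Hochberg adjustment. For mir-501 the MNP minus MWK difference was -0.417 points, and it was 0.170 points without MWK1, so its direction rested on that library. Its size also moved, to -0.904 points without MWK2, -0.641 without MNP6 and -0.263 without MNP2.

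Ratios between single strands overlapped between the groups as well. For every 100 counts of miR-532-5p there were 9.16, 8.81 and 9.64 counts of miR-501-3p in MNP and 11.5, 8.64 and 9.55 in MWK. For miR-362-5p the numbers were 4.29, 3.78 and 3.89 in MNP and 4.37, 4.09 and 4.70 in MWK. MWK1 stood apart for miR-501-3p, and the other 5 libraries lay between 8.64 and 9.64.

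A single miRNA outside the cluster shared a seed with any of the 7 strands whose sequence was known. Among the 431 tested miRNAs with a RefSeq sequence, it was miR-329-3p, which shares ACACACC with miR-362-3p. miR-329-3p was at 88.6, 133 and 147 CPM in MNP1, MNP2 and MNP6 and at 24.1, 22.04 and 37.9 CPM in MWK1, MWK2 and MWK6. All MNP libraries lay above all MWK libraries, and the log2 fold change was 2.11 ± 0.33 (SE, adjusted p = 0.000223 by the quasi-likelihood test of edgeR). Each library held more miR-329-3p than miR-362-3p.

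The miRNAs whose levels over the 6 libraries were most like the cluster's sum were miR-320-3p (Pearson r = 0.964), miR-196a-2-3p (r = 0.959) and miR-574-5p (r = 0.952), taken from 283 with a mean of at least 50 CPM. These correlations describe 6 libraries in 2 groups. miR-320-3p was at 1337, 1065 and 1172 CPM in MNP1, MNP2 and MNP6 and at 845, 715 and 969 CPM in MWK1, MWK2 and MWK6. Its log2 fold change was 0.50 (adjusted p = 0.0547 by the quasi-likelihood test of edgeR). For miR-196a-2-3p, from a HOX cluster, the log2 fold change was 1.01 (adjusted p = 0.0167), and for miR-574-5p it was 0.31 (adjusted p = 0.310), from the same edgeR test. All 3 had MNP libraries above MWK libraries, as had 23.4% of all miRNAs tested, and this follows from choosing them by their likeness to a sum that separates the groups.

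Markers of other kidney cell types are given beside the cluster because both groups are mixtures of cells. ClC-5 works in the proximal tubule, and of 6 tested strands of tubule-associated miRNAs (miR-192, miR-194, miR-204 and miR-30a), 4 were lower in MNP, 0 were higher and 2 did not pass edgeR's test, where 17.1% of all miRNAs were lower and 19.4% higher, with a median log2 fold change of -1.59. The strands not past the threshold, named after their values were seen, were miR-204-5p (log2 fold change -0.19) and miR-194-2-3p, which had 6, 3 and 2 counts in MNP and 3, 0 and 0 in MWK. The 6 strands summed to 11902, 11899 and 10580 CPM in MNP1, MNP2 and MNP6 and to 56758, 65061 and 48282 CPM in MWK1, MWK2 and MWK6. Most of each sum was miR-30a-5p, at 10206 ± 852 CPM in MNP and 53102 ± 7870 CPM in MWK (SD, n = 3 each). The other 5 strands summed to 1209, 1196 and 1359 CPM in the MNP libraries and 3756, 4040 and 3001 CPM in the MWK libraries. For miR-30a-5p the log2 fold change was -2.38 ± 0.15 (SE, adjusted p = 4.9e-08 by the quasi-likelihood test of edgeR). Over the same libraries the cluster's sum stayed between 3977 and 4865 CPM. Whether the cluster and the tubule list differ in their response was not tested.

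Epithelial, endothelial and most red cell markers were lower in MNP, beside 17.1% of all miRNAs tested. Epcam, CD105 and Ter119, which mark these cell types, are bound by the beads, as is CD140a. The part of bead removal in the levels of any marker list was not tested. All 7 strands of the miR-200 family, which marks epithelium, were lower, at a median of -6.62 on the log2 scale, with sums of 227, 386 and 89.3 CPM in MNP1, MNP2 and MNP6 against 23975, 25414 and 21834 CPM in MWK1, MWK2 and MWK6. Of these 7, 2 were at 0 in every MNP library, and with those set to a floor of 3 counts per library the median was -6.46. The most abundant, miR-200a-3p, averaged 105 CPM in MNP and 12440 CPM in MWK. Both endothelial strands of miR-126a were lower (median log2 fold change -5.18), with sums of 419, 595 and 578 CPM in MNP and 20132, 21311 and 18150 CPM in MWK, most of it miR-126a-3p. Of 5 erythroid strands, 4 were lower and 1 did not pass (median -2.10), with sums of 391, 283 and 176 CPM in MNP and 1495, 1486 and 762 CPM in MWK. miR-451a had the highest level in each MWK library and miR-486a-5p in each MNP library.

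Stromal and leukocyte markers are given beside the 36.6% of all miRNAs that passed the threshold. Of 8 strands of miR-143, miR-145a, miR-199a and miR-214, which mark stroma and smooth muscle, 2 were lower and 6 did not pass, with a median log2 fold change of 0.03. They summed to 34422, 46068 and 46850 CPM in MNP1, MNP2 and MNP6 and to 74461, 86114 and 71613 CPM in MWK1, MWK2 and MWK6. This difference lay in the most abundant strand, miR-143-3p, which was lower in MNP with a log2 fold change of -1.33 ± 0.15 (SE, adjusted p = 1.5e-05 by the quasi-likelihood test of edgeR). The other 7 strands summed to 13152, 17975 and 21225 CPM in the MNP libraries and 14145, 15108 and 14565 CPM in the MWK libraries. Among these 7, miR-145a-5p was lower in MNP as well (log2 fold change -1.86, adjusted p = 6.1e-05 by the same edgeR test). Of 4 leukocyte strands of miR-142a and miR-223, 1 was higher and 3 did not pass, with a median of 0.86 (0.74 with 1 strand that was at 0 in every MWK library set to the floor) and sums of 123, 142 and 68.3 CPM in MNP and 78.2, 78.7 and 61.3 CPM in MWK. By the mean over both groups miR-142a-3p was the most abundant of these, but miR-142a-5p was higher in MNP6, MWK1 and MWK2. The part of any of these cell types in the levels of the cluster was not tested.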

How the data were processed

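Per the labels and the study's methods, the authors trimmed adapters, aligned reads to mm10 with Bowtie2 2.2.3 (submitters' processing notes) and counted known miRNAs with miRDeep2. The deposited estimated counts were not normalized, with a row for every mature strand and hairpin it maps to. The tests had been planned for counts. The expected counts held fractions in 3 of 792 rows, none from the cluster, and were rounded and tested in the same way.

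Counts were scaled by TMM and tested with edgeR 4.0.16 (quasi-likelihood, no covariate) in R 4.3.3 over the 525 miRNAs whose counts summed to more than 10, with Benjamini-Hochberg adjustment. Standard errors (SE) and intervals of log2 fold changes were derived from the F statistic. DESeq2 1.42.0, limma-voom (limma 3.58.1), other scalings and filters, the sum over rows, a replicate block and leaving out each library were alternatives. Exact tests used scipy 1.17.1 and figures matplotlib 3.10.9. The steps were tested on simulated data of 525 miRNAs, of which 200 were changed by a log2 value of 2. Of the changed miRNAs 83.5% were recovered, and 1.76% of the calls were false. Smaller changes were not simulated. Replicate libraries differed by more than counting noise. The chi-square per degree of freedom was 16.8 to 43.9 for pairs of MNP libraries and 2.47 to 6.91 for pairs of MWK libraries.

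Named miRNAs were all strands of the cluster, miRNAs sharing a member's seed, the 3 most like the cluster's sum at a mean of at least 50 CPM, the most abundant strand of each list, and up to 3 X chromosome strands with the smallest adjusted p in each direction. The members and lists were chosen with earlier results of these data known.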

Additional observations from a re-analysis of the deposited data

How the results depend on the processing

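The number of miRNAs past the threshold was 192 and moved most when each library had to hold more than 10 counts, to 120 of 260 tested, which left 3 strands of the cluster. The count of cluster strands past it was 0 in every alternative except library totals, with 1 (miR-532-5p, log2 fold change 0.42). Of 112 values of a strand's log2 fold change under an alternative, 109 kept their direction and their side of the threshold, 1 passed it and 2 changed sign. Leaving out each library gave -0.015 to 0.22 for miR-501-3p, -0.0087 to 0.17 for miR-362-5p and -0.904 to 0.170 percentage points for the share of mir-501, where MWK2 decided the sign of both strands and MWK1 that of the share.

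On the 4 numbered libraries a replicate block gave 153 miRNAs past the threshold against 134 without it, and 0 of 7 strands of the cluster in either fit. The differences between replicates 1 and 2 in the 2 groups correlated at 0.039 over 525 miRNAs (not independent replicates), and the sources state that both groups came from 3 litters but not whether equal numbers mark a litter. miR-501-5p could not be tested on these 4 libraries, nor miR-500-3p without MWK1. Few counts widen the intervals of the 5 weak strands, and 3 libraries a group limit the exact tests.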

Other observations

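Of 49 tested strands whose hairpin lies on the X chromosome outside the cluster, 3 (6.12%) were higher and 13 (26.5%) lower in MNP by edgeR's quasi-likelihood test, beside 19.4% and 17.1% of all miRNAs tested. The other 33 did not pass, and the difference from all miRNAs was not tested. The strands had a median log2 fold change of -0.30, beside -0.01 for all 525. Of the 49, 3 are also listed with a hairpin on another chromosome, and the list shares the strands of miR-223 with the leukocyte list. The most abundant, let-7f-5p, had a log2 fold change of -0.06 (adjusted p = 0.835, Benjamini-Hochberg, by the same edgeR test). The higher strands were miR-676-3p (log2 fold change 0.86), miR-676-5p (0.78) and miR-223-5p. miR-223-5p had 4, 8 and 7 counts in MNP1, MNP2 and MNP6 and 0 in each MWK library. The lower strands with the smallest adjusted p were miR-363-3p (log2 fold change -2.89), miR-672-5p (-3.16) and miR-322-5p (-2.25).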
